A study of Mus musculus with 8 samples.

Results

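The 42 genes described here encode the machinery of mitosis: the kinases and cyclins of the passage from G2 into mitosis, the chromosomal passenger and checkpoint proteins, the kinetochore, the spindle and the apparatus of cytokinesis. The list is one of gene symbols chosen by function, with no measured value in the rule, although earlier results of these data were known when it was drawn up. All 42 were among the 34745 genes of the deposited table, and all 42 were among the 13436 genes with enough counts to be tested. Bulk RNA-seq was made from 3 populations sorted from the fetal liver of untreated wild-type B6 mice. All cells were Lin–, CD45+ and CD127+ and lacked CD25. ILC1/3P (n = 2 libraries) were gated as CD94+ and PD-1– among Flt3– cells with integrin α4β7. ILCP (n = 3) came from the same Flt3– α4β7+ cells but were PD-1+ and CD94–. CLP (n = 3) were gated on Flt3. The sorts were reported as over 90% pure, and no label says whether the libraries of a group came from separate animals, so the p-values speak of the spread among these libraries alone, and that spread may be technical.

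Cdk1, the kinase that drives mitosis, acts with the A- and B-type cyclins, and its activity rises through G2 and falls when the anaphase-promoting complex destroys the cyclins. Most of these genes are transcribed late in the cell cycle, so a cell population with more dividing cells holds more of their mRNA. In bulk RNA a larger share of cells in G2 and mitosis cannot be told apart from more mRNA per such cell.

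The late timing of these genes is known to run through promoter elements. The CHR element is bound by complexes that hold such genes silent in resting cells and activate them in G2, and CCAAT boxes are bound by the factor NF-Y. RefSeq promoters (GRCm38.p6, 250 bases before to 50 bases after the gene start) were matched for 35 of the 42 genes. No promoter was matched for Aurkb, Ccna2, Cdc25c, Incenp, Kif20a, Spc24 and Tpx2. The letters TTTGAA or TTCGAA, on either strand, were taken as CHR matches, and CCAAT was searched on both strands. TTCGAA reads the same on both strands and was counted once. Neither CHR form contains CCAAT, though neighbouring CHR and CCAAT matches can share a base. The promoters of the 4 matched genes with the smallest p in ILC1/3P against CLP are shown as the genes on which that comparison rests most, with all CHR and CCAAT matches in capitals.
Birc5 (chr11:117848987-117849286, + strand): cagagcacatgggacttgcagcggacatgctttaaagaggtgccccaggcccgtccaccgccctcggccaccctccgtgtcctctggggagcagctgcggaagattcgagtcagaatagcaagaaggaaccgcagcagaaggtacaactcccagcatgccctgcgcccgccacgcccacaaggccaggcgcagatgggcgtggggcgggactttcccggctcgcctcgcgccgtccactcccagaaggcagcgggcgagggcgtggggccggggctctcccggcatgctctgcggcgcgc
Cdk1 (chr10:69352863-69353162, − strand): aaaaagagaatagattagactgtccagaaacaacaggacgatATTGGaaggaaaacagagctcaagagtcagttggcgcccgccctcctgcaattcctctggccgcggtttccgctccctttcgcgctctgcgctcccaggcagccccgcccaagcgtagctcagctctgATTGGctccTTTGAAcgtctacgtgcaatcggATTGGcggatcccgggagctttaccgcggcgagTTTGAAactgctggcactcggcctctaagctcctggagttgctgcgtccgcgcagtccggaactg
Cks1b (chr3:89418242-89418541, − strand): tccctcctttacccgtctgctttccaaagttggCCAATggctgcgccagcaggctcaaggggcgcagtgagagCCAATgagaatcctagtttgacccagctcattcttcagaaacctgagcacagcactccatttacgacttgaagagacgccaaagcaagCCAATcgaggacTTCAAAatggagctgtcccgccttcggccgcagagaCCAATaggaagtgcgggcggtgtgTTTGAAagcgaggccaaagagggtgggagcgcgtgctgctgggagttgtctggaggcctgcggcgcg
Cks2 (chr13:51644982-51645281, + strand): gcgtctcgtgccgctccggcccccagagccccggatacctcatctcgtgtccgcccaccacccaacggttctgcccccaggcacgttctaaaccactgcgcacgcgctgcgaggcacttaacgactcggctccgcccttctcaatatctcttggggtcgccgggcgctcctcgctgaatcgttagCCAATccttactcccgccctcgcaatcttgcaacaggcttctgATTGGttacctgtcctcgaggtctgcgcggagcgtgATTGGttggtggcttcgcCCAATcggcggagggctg
The Cdk1 window held 2 CHR and 3 CCAAT matches. The Cks1b window held 2 CHR and 4 CCAAT matches. The Cks2 window held 4 CCAAT matches and neither CHR form, and the Birc5 window held neither motif in these letters.

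Across the 35 matched promoters, 27 (77.1%) held a CHR match, against 19.4% of all 27025 mouse promoters of the same length. A CCAAT match was found in 28 (80%), against 37.9% of all promoters, and both motifs together in 24 (68.6%), against 7.7%. Of the 14 matched genes called higher in ILC1/3P against CLP, 11 (78.6%) had a CHR match, and of the 21 that were not called, 16 (76.2%) had one. At least 2 CCAAT matches were present in 12 of those 14 promoters (85.7%) and in 9 of the 21 (42.9%), against 12.2% of all promoters. These shares describe letters in a window and were not tested.

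Library totals ran from 4991939 to 8082476 counts, and 1 count was worth 0.113 to 0.236 CPM. CPM here is the count scaled to 1000000 counts per library after TMM scaling, and it is the scale for comparing 1 gene between libraries. The TMM factors were 0.753 and 0.671 in ILC1/3P and ran from 1.05 to 1.17 in ILCP and from 1.09 to 1.23 in CLP. All libraries carry the same batch date in the labels, together with an adult age in weeks that is at odds with fetal tissue. Of the gated receptors, Klrd1 (CD94) reached 1184 and 1629 CPM in ILC1/3P and at most 71.5 CPM elsewhere. Pdcd1 (PD-1) was highest in ILCP, at 44.6 to 107 CPM. In ILC1/3P, though gated as PD-1–, Pdcd1 had 10.2 and 17.5 CPM, against 0 counts in CLP (edgeR adjusted p = 0.000137). Flt3 had no counts in ILC1/3P and 401 to 570 CPM in CLP. Itgb7 (integrin β7) had 39.1 and 65.9 CPM in ILC1/3P, 28.3 to 113 CPM in ILCP and at most 8.27 CPM in CLP. Of the other gated proteins, integrin α4, CD127 and CD45 had mRNA in every library, and CD25 did not. Itga4 (integrin α4) was lower in ILC1/3P, at 169 and 100.2 CPM, than in CLP, at 302 to 412 CPM (edgeR adjusted p = 0.0036). Il7r (CD127), on which all cells were gated, was also lower in ILC1/3P, at 215 and 214 CPM against 380 to 526 CPM (edgeR adjusted p = 0.00968). Il2ra (CD25), gated out in all groups, had 0.822 and 3.78 CPM in ILC1/3P, 6.26 to 9.26 CPM in ILCP and 0 counts in CLP. Ptprc (CD45) had at least 188 CPM in every library. mRNAs used as markers of other cell types also differed between the populations. The 10 myeloid genes summed to 46.3 to 78.5 CPM in ILC1/3P, 13.4 to 20.6 CPM in ILCP and 685 to 918 CPM in CLP. The 7 B-lineage genes summed to 129 to 170 CPM in ILC1/3P, 154 to 191 CPM in ILCP and 2484 to 3305 CPM in CLP. The 10 mast cell and megakaryocyte genes summed to 199 to 273 CPM in ILC1/3P, 540 to 673 CPM in ILCP and 2.96 to 6.07 CPM in CLP. The 10 erythroid genes found in the table summed to at most 27.2 CPM in any library, and the 7 hepatocyte genes to at most 27.96 CPM. The mast cell sum was mostly Cpa3 (185 and 237 CPM in ILC1/3P), and Mcpt8, Ms4a2, Fcer1a and Ppbp had 0 counts in all 8 libraries. In ILC1/3P the largest myeloid gene was Lyz2, with 39.1 and 40.7 CPM of sums of 78.5 and 46.3 CPM. Lyz2 was also higher there than in ILCP (edgeR adjusted p = 0.00197), and Prtn3 had 17.6 and 0.709 CPM. The B-lineage sum was mostly Cd79b, with 126 and 153 CPM. Both ILC1/3P libraries had 0 counts for the myeloid genes Elane, Ctsg and Ms4a3 and the B-lineage genes Pax5 and Igll1. Elane, Ctsg and Ms4a3 had at most 3.68 CPM in any CLP library, and Pax5 and Igll1 at least 14.97 CPM in each. Bulk RNA does not tell whether these mRNAs came from other cells or from the sorted cells themselves. Any part of other cells in the levels of the mitosis genes was not tested.

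Mitosis genes were most abundant in ILC1/3P. Summed over the 42 genes, their level was 14771 and 13189 CPM in the ILC1/3P libraries, 3458, 3500 and 3803 CPM in the ILCP libraries and 2818, 3107 and 2847 CPM in the CLP libraries. Both ILC1/3P libraries lay far above every other library, and the 3 ILCP libraries lay slightly above the 3 CLP libraries. The mean sum in ILC1/3P was 4.78 times that in CLP and 3.90 times that in ILCP, and the mean sum in ILCP was 1.23 times that in CLP. Cks1b, Birc5 and Bub3 together made up a large part of the ILC1/3P sum, with shares of 24.9%, 14.5% and 10.7%. Without these 3 genes the ratios were 3.77 for ILC1/3P to CLP, 3.09 for ILC1/3P to ILCP and 1.22 for ILCP to CLP. As a share of raw counts, with no TMM scaling, the 42 genes took 1.11% and 0.884% in ILC1/3P, 0.402%, 0.367% and 0.420% in ILCP and 0.347%, 0.338% and 0.309% in CLP.

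**Figure D1:**
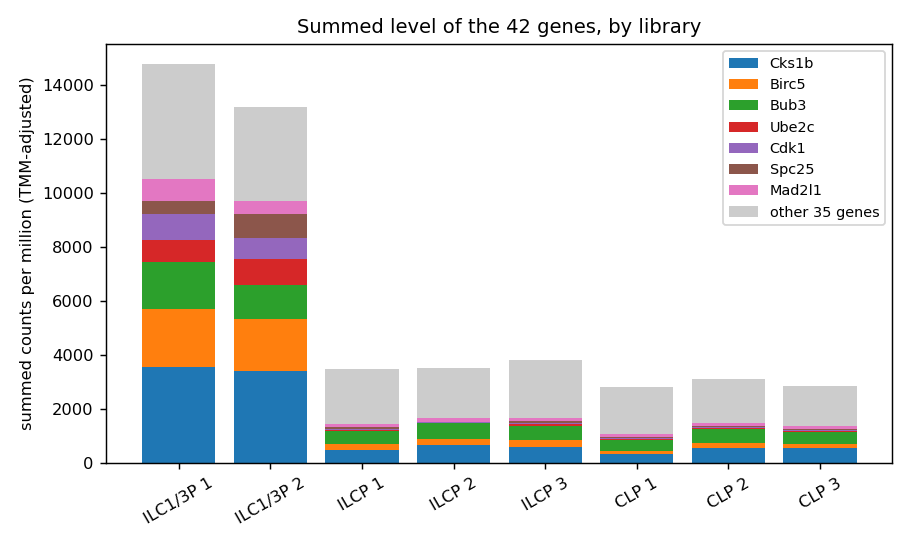
Stacked bars give the summed level of the 42 genes in each library in TMM-adjusted CPM, with the 7 genes that contribute most in ILC1/3P in colour and the other 35 in grey. The 2 ILC1/3P bars reach 14771 and 13189 CPM, and no ILCP or CLP bar passes 3803 CPM.

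Against CLP, 17 of the 42 genes were higher in ILC1/3P and none was lower (edgeR quasi-likelihood test, adjusted p under 0.05). Over all 13436 genes tested, 11.8% were higher and 11.7% lower in that comparison. Against ILCP, 16 were higher and none lower, and over all genes 8.06% were higher and 8.25% lower. The 2 comparisons share the ILC1/3P libraries. The median log2 fold change of the 42 genes was 1.30 against CLP, where the median of all genes was -0.25, and 1.44 against ILCP, where it was -0.23. Both ILC1/3P libraries lay above all CLP libraries for 26 of the 42 genes, against 23.3% of all genes, and above all ILCP libraries for 27, against 20.2% of all genes.

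With library size as the only scaling, the median of all genes moved to -0.93 against CLP and -0.86 against ILCP. The mitosis genes then gave 13 higher and none lower against CLP, beside 7.04% of all genes higher and 20.9% lower. They gave 13 higher and 1 lower (Ccnb2) against ILCP, beside 3.53% higher and 15.9% lower.

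**Figure D2:**
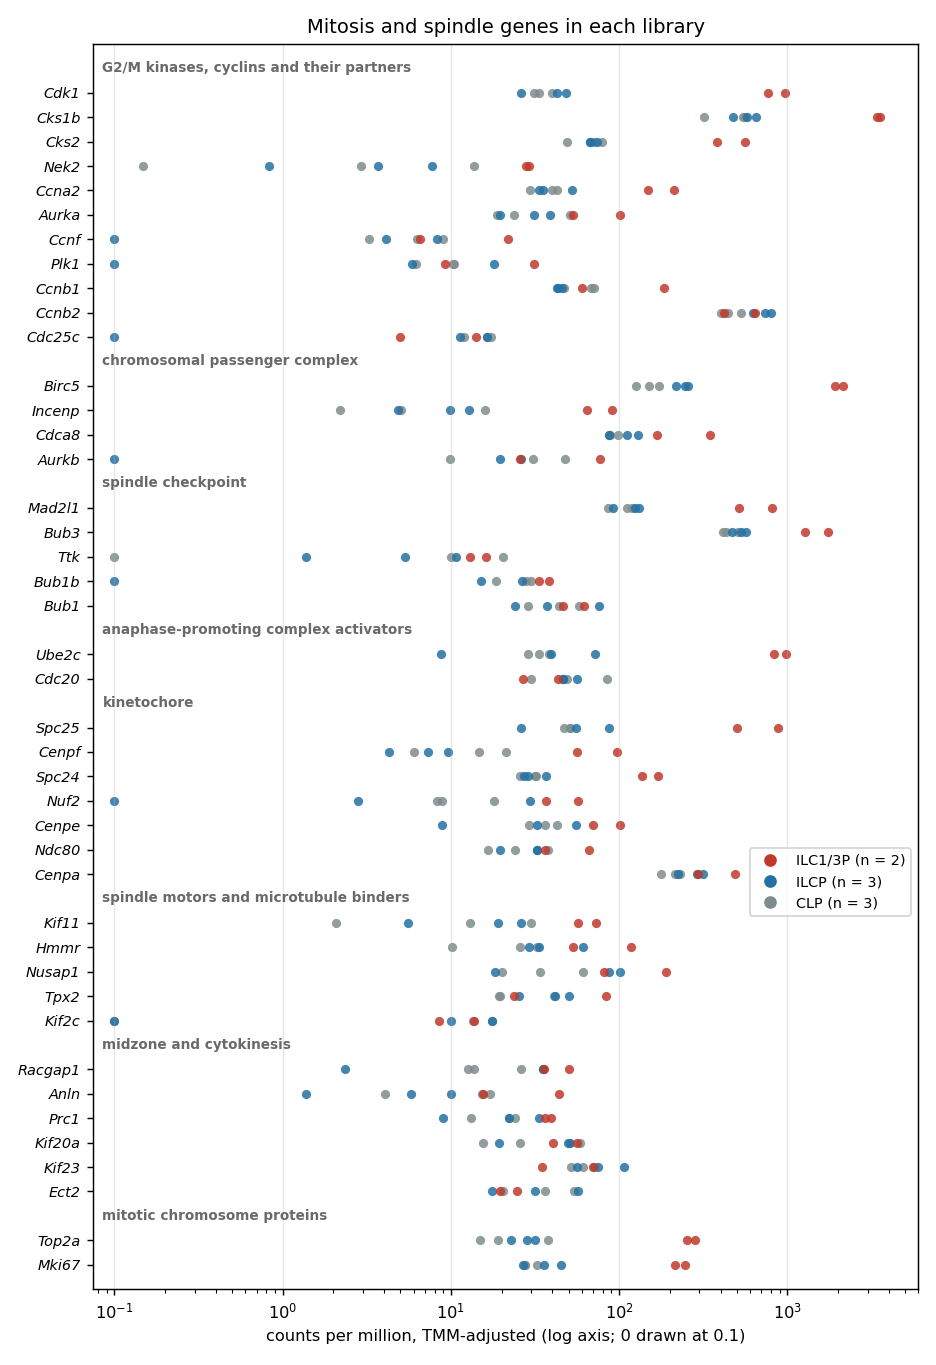
Each point is 1 library, the horizontal log axis gives TMM-adjusted CPM, and genes are grouped by role. For Cdk1, Cks1b, Birc5, Ube2c, Spc25, Top2a and Mki67 the 2 ILC1/3P points lie well apart from the ILCP and CLP points, and for Ccnb2, Bub1 and Ect2 they lie among them.

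Among the kinases, cyclins and their partners, 4 of 11 passed as higher in ILC1/3P than CLP (Cdk1, Cks1b, Cks2, Ccna2), beside 11.8% of all genes. Against ILCP 5 of 11 were higher (these 4 and Ccnb1), beside 8.06%. Whether the roles differ from each other was not tested. Cdk1 (ENSMUSG00000019942, chromosome 10, 69336635 to 69352938 on mm10) had 962 and 768 CPM in ILC1/3P, against 42.8, 26.1 and 48.4 CPM in ILCP and 33.4, 31.3 and 39.9 CPM in CLP. The ILCP and CLP libraries overlapped, and both ILC1/3P libraries were many times above them. The log2 fold change was 4.63 ± 0.31 (SE) against CLP (adjusted p = 3.32e-06), a 24.8-fold difference, and 4.47 ± 0.31 against ILCP (adjusted p = 3.69e-05). Cks1b (ENSMUSG00000028044, chromosome 3, 89415472 to 89418383), which encodes a small protein that docks substrates to cyclin-dependent kinases, had 3537 and 3401 CPM in ILC1/3P, against 473, 646 and 578 CPM in ILCP and 320, 561 and 544 CPM in CLP. The ILC1/3P libraries differed little from each other and lay above every other library. Cks1b was higher by 2.87 ± 0.28 (log2) than in CLP (adjusted p = 4.86e-05) and by 2.62 ± 0.28 than in ILCP (adjusted p = 0.000293). Cks2 (ENSMUSG00000062248, chromosome 13, 51645232 to 51650660), the paralogue of Cks1b, had 384 and 557 CPM in ILC1/3P, against 66.8, 66.9 and 74.2 CPM in ILCP and 49.3, 70.6 and 78.6 CPM in CLP. Cks2 was higher by 2.83 ± 0.28 (log2) than in CLP (adjusted p = 5.45e-05) and by 2.76 ± 0.28 than in ILCP (adjusted p = 0.000249). Of the 50-base words of the longest Cks2 transcript, 29.7% also occur in transcripts of other genes, so reads may have been divided between them.

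Of the 4 cyclin genes, Ccna2 was called in both comparisons, Ccnb1 against ILCP, and Ccnb2 and Ccnf in neither. Of all genes, 11.8% were higher against CLP and 8.06% against ILCP. Whether their fold changes differ from each other was not tested. Ccna2, cyclin A2, had 213 and 148 CPM in ILC1/3P, against 52.6, 33.4 and 35.2 CPM in ILCP and 42.8, 39.9 and 29.6 CPM in CLP. It was higher by 2.27 ± 0.34 (log2) than in CLP (adjusted p = 0.000623) and by 2.16 ± 0.34 than in ILCP (adjusted p = 0.00191). Exons of Ccna2 overlap those of Exosc9 on the other strand, and whether counting used strand is not given in the sources used here. Exosc9 had 133 to 205 CPM in ILC1/3P, 106 to 159 CPM in ILCP and 91.0 to 145 CPM in CLP. Ccnb1, cyclin B1, had 183 and 60.3 CPM in ILC1/3P, against 45.9, 42.4 and 43.5 CPM in ILCP and 46.9, 71.2 and 68.0 CPM in CLP. The lower ILC1/3P library lay within the CLP range, and both lay above ILCP. Ccnb1 was higher than in ILCP by 1.47 ± 0.42 (log2, adjusted p = 0.0346), a call that was lost in 10 of 18 alternatives, and without the ILC1/3P library of replicate 1 the adjusted p was 0.518. Its difference from CLP was 0.98 ± 0.42 (adjusted p = 0.117) and was called in 3 of 18 alternatives. Of the 50-base words of Ccnb1, 42.1% also occur in transcripts of other genes, among them processed pseudogenes.

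Ccnb2, cyclin B2, had 645 and 418 CPM in ILC1/3P, against 620, 796 and 739 CPM in ILCP and 405, 532 and 444 CPM in CLP. It was already abundant in ILCP and CLP, and the ILC1/3P libraries overlapped with both groups. The log2 difference of ILC1/3P from CLP was 0.21 (95% interval -0.36 to 0.77), and from ILCP it was -0.43 (95% interval -1.01 to 0.14). With library size as the only scaling Ccnb2 was lower in ILC1/3P than in ILCP, by a log2 fold change of -1.05 (adjusted p = 0.0174). Nek2, Aurka and Plk1, kinases of the centrosome and spindle, Ccnf, a cyclin of a ubiquitin ligase, and Cdc25c, the phosphatase that activates Cdk1, were not called by edgeR in either comparison. Aurka, the kinase of the spindle poles, had 101 and 52.9 CPM in ILC1/3P, against 31.0, 19.6 and 38.9 CPM in ILCP and 51.2, 23.7 and 18.7 CPM in CLP. The ILC1/3P libraries lay above the others, the lower of them narrowly, and the differences of 1.30 ± 0.51 from CLP (adjusted p = 0.0888) and 1.37 ± 0.51 from ILCP (adjusted p = 0.0939) on the log2 scale did not pass in edgeR. DESeq2 called Aurka in both comparisons (adjusted p = 0.0439 and 0.0409), and it was called in 6 of 18 alternatives against CLP and in 4 against ILCP. Nek2 was called against ILCP in 1 alternative, without a filter on low counts (adjusted p = 0.0366).

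The chromosomal passenger complex corrects faulty attachments of chromosomes to the spindle. Of its 4 genes, Birc5, Incenp and Cdca8 were higher in ILC1/3P than in ILCP and than in CLP, and Aurkb was not called. Of all genes, 11.8% were higher against CLP and 8.06% against ILCP. Birc5 (survivin, ENSMUSG00000017716, chromosome 11, 117849251 to 117855743) had 2151 and 1907 CPM in ILC1/3P, against 219, 247 and 257 CPM in ILCP and 125, 173 and 150 CPM in CLP. The 3 populations did not overlap. Birc5 was higher by 3.76 ± 0.24 (log2) than in CLP (adjusted p = 2.51e-06), a 13.6-fold difference, and by 3.08 ± 0.24 than in ILCP (adjusted p = 5.19e-05). Incenp, the scaffold of the complex, had 90.6 and 64.3 CPM in ILC1/3P, against 12.8, 4.84 and 9.85 CPM in ILCP and 15.98, 2.21 and 5.04 CPM in CLP. It was higher by 3.31 ± 0.74 (log2) than in CLP (adjusted p = 0.00711) and by 3.08 ± 0.73 than in ILCP (adjusted p = 0.0149). The call against ILCP was lost with library size only and without the ILC1/3P library of replicate 1 or the ILCP library of replicate 3, with adjusted p up to 0.0589.

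Cdca8 (borealin) had 346 and 169 CPM in ILC1/3P, against 129, 86.8 and 111 CPM in ILCP and 88.5, 98.8 and 87.3 CPM in CLP. It was higher by 1.49 ± 0.32 (log2) than in CLP (adjusted p = 0.00558) and by 1.24 ± 0.32 than in ILCP (adjusted p = 0.0212). The call against CLP was lost in 3 of 18 alternatives: with library size only, with limma on FPKM and without the ILC1/3P library of replicate 1 (adjusted p up to 0.164). The call against ILCP was lost in 5, the same 3 and without the ILCP library of replicate 2 or 3 (adjusted p up to 0.338). Aurkb, the kinase of the complex, had 76.8 and 25.8 CPM in ILC1/3P, against 26.2, 0 and 19.7 CPM in ILCP and 47.9, 30.9 and 9.93 CPM in CLP. These ranges overlapped, and the log2 differences were 0.79 ± 1.19 from CLP (adjusted p = 0.679) and 1.75 ± 1.20 from ILCP (adjusted p = 0.359). Whether Aurkb differed from its 3 partners in its fold change was not tested.

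The spindle checkpoint delays anaphase until every chromosome is attached. Mad2l1 and Bub3 were higher in ILC1/3P than in both other populations, and Bub1, Bub1b and Ttk were called in neither comparison. Of all genes, 11.8% were higher against CLP and 8.06% against ILCP. Mad2l1 (ENSMUSG00000029910, chromosome 6, 66535390 to 66547220), whose product Mad2 binds Cdc20, had 809 and 512 CPM in ILC1/3P, against 91.4, 125 and 131 CPM in ILCP and 85.8, 119 and 111 CPM in CLP. Mad2l1 was higher by 2.65 ± 0.29 (log2) than in CLP (adjusted p = 9.04e-05) and by 2.51 ± 0.28 than in ILCP (adjusted p = 0.000395). Bub3, which carries Bub1 and BubR1 to kinetochores, had 1731 and 1266 CPM in ILC1/3P, against 468, 567 and 533 CPM in ILCP and 412, 506 and 430 CPM in CLP. Bub3 was higher by 1.74 ± 0.23 (log2) than in CLP (adjusted p = 0.000323) and by 1.52 ± 0.23 than in ILCP (adjusted p = 0.00178). The kinase gene Bub1 had 61.7 and 46.6 CPM in ILC1/3P, against 37.3, 24.2 and 75.5 CPM in ILCP and 43.8, 57.6 and 28.6 CPM in CLP. The groups overlapped, with a log2 difference from CLP of 0.32 (95% interval -0.76 to 1.40) and from ILCP of 0.25 (95% interval -0.83 to 1.33).

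Ube2c and Cdc20 both serve the anaphase-promoting complex, Ube2c as its ubiquitin-conjugating enzyme and Cdc20 as its activator. Ube2c (ENSMUSG00000001403, chromosome 2, 164769898 to 164778822) had 828 and 974 CPM in ILC1/3P, against 39.5, 8.71 and 71.8 CPM in ILCP and 28.7, 38.3 and 33.5 CPM in CLP. It had the largest fitted fold change of the 42 genes in both comparisons, 4.75 ± 0.62 (log2) against CLP (adjusted p = 0.000253), a 26.9-fold difference, and 4.49 ± 0.61 against ILCP (adjusted p = 0.000961). Exons of Ube2c overlap those of Tnnc2 on the other strand, and Tnnc2 had 0 counts in all 8 libraries. Cdc20 had 43.1 and 26.7 CPM in ILC1/3P, against 56.2, 46.6 and 46.5 CPM in ILCP and 84.3, 48.9 and 29.9 CPM in CLP. Both ILC1/3P libraries lay below all ILCP libraries, but the log2 difference of -0.51 (95% interval -1.51 to 0.49) did not pass, nor did that of -0.64 (95% interval -1.64 to 0.37) from CLP. Cdc20 exons overlap those of Elovl1 on the other strand.

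Kinetochores tie chromosomes to spindle microtubules. Of the 7 kinetochore genes, 4 passed as higher in ILC1/3P than CLP (Spc24, Spc25, Cenpf, Cenpa), beside 11.8% of all genes. Against ILCP 3 were higher (Spc24, Spc25, Cenpf), beside 8.06%. The 4-part Ndc80 complex makes the contact with microtubules. Its gene Spc25 (ENSMUSG00000005233, chromosome 2, 69193895 to 69206194) had 501 and 880 CPM in ILC1/3P, against 87.5, 25.98 and 55.6 CPM in ILCP and 51.2, 47.1 and 50.7 CPM in CLP. Spc25 was higher by 3.80 ± 0.43 (log2) than in CLP (adjusted p = 0.000128) and by 3.61 ± 0.43 than in ILCP (adjusted p = 5e-04). Its partner Spc24 (ENSMUSG00000074476, chromosome 9, 21755442 to 21760286) had 137 and 171 CPM in ILC1/3P, against 27.2, 28.9 and 36.6 CPM in ILCP and 32.0, 25.6 and 31.7 CPM in CLP. Spc24 was higher by 2.37 ± 0.32 (log2) than in CLP (adjusted p = 0.000306) and by 2.32 ± 0.32 than in ILCP (adjusted p = 0.001). The other 2 genes of the complex were not called by edgeR. Ndc80 had 36.4 and 66.2 CPM in ILC1/3P, against 32.4, 19.6 and 32.7 CPM in ILCP and 37.5, 16.6 and 24.0 CPM in CLP, with log2 differences of 0.97 ± 0.48 from CLP and 0.86 ± 0.48 from ILCP (adjusted p = 0.168 and 0.261). Nuf2 had 57.1 and 36.9 CPM in ILC1/3P, against 29.4, 0 and 2.82 CPM in ILCP and 18.02, 8.83 and 8.30 CPM in CLP. Both ILC1/3P libraries had more Nuf2 than any other library, and the spread within ILCP was wide, so that the differences of 2.00 ± 1.28 from CLP and 2.13 ± 1.28 from ILCP (log2, adjusted p = 0.283 and 0.296) did not pass. Ndc80 was called against CLP with the length and GC offset (adjusted p = 0.0461), and Nuf2 with those groups fitted alone (0.0279) and against ILCP without the ILCP library of replicate 1 (0.035). Cenpe, a kinetochore motor, was not called by edgeR but passed in 4 of 18 alternatives against CLP and 3 against ILCP.

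Cenpf, a large protein of the outer kinetochore, had 96.7 and 56.0 CPM in ILC1/3P, against 4.27, 9.67 and 7.32 CPM in ILCP and 14.6, 21.3 and 6.08 CPM in CLP. Cenpf was higher by 2.45 ± 0.59 (log2) than in CLP (adjusted p = 0.0106) and by 3.43 ± 0.61 than in ILCP (adjusted p = 0.00338). The call against CLP was lost without the ILC1/3P library of replicate 1 and with library size only (adjusted p up to 0.0829). Cenpa, the histone H3 variant that marks centromeres, had 295 and 490 CPM in ILC1/3P, against 225, 314 and 290 CPM in ILCP and 178, 214 and 230 CPM in CLP. The ILC1/3P libraries lay above CLP and the lower of them lay within the ILCP range. Cenpa was higher than in CLP by 0.92 ± 0.28 (log2, adjusted p = 0.0317), a call lost in 7 of 18 alternatives: with library size only, with limma on FPKM, and without any one CLP library, the ILCP library of replicate 3 or the ILC1/3P library of replicate 2. Its difference from ILCP was 0.51 ± 0.28 (adjusted p = 0.247), called in 1 alternative.

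Spindle motors and microtubule binders build the bipolar spindle. Of the 5 genes, edgeR called Hmmr as higher in ILC1/3P than in CLP and none against ILCP, beside 11.8% and 8.06% of all genes. Against ILCP 1 of the 5 had an unadjusted p under 0.05, and DESeq2 also called none. Against CLP, DESeq2 called Hmmr, Kif11 and Nusap1, beside 10.9% of all genes higher. Hmmr, a spindle assembly factor, had 117 and 52.9 CPM in ILC1/3P, against 61.3, 33.4 and 29.1 CPM in ILCP and 32.6, 10.1 and 25.8 CPM in CLP. Hmmr was higher than in CLP by 1.89 ± 0.54 (log2, adjusted p = 0.0261). This call was lost in 5 of 18 alternatives: with library size only, with limma on FPKM, and without the CLP library of replicate 2 or 3 or the ILC1/3P library of replicate 1 (adjusted p up to 0.222). Kif11, the motor that pushes the spindle poles apart, had 56.9 and 72.3 CPM in ILC1/3P, against 26.02, 5.53 and 19.1 CPM in ILCP and 29.9, 13.1 and 2.08 CPM in CLP. Both ILC1/3P libraries lay above all others, and the log2 differences of 2.10 ± 0.85 from CLP (adjusted p = 0.0991) and 1.93 ± 0.85 from ILCP (adjusted p = 0.153) did not pass in edgeR. Kif11 was called in 4 of 18 alternatives against CLP, DESeq2 among them (adjusted p = 0.0432), and in 1 against ILCP (without a filter, 0.0407). Nusap1, which bundles microtubules near chromosomes, had 189 and 81.8 CPM in ILC1/3P, against 101, 18.4 and 86.7 CPM in ILCP and 60.9, 33.9 and 20.01 CPM in CLP. Its difference from CLP was 1.82 ± 0.65 (log2, adjusted p = 0.0627 in edgeR and 0.02 in DESeq2), and it was called in 6 of 18 alternatives.

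None of the 6 genes of the midzone and of cytokinesis was called by edgeR in either comparison. Of all genes, 11.8% were higher and 11.7% lower against CLP, and 8.06% and 8.25% against ILCP. With 6 genes, a count of 0 is not set apart from those shares. At an unadjusted p under 0.05 there were 0 against CLP and 1 against ILCP, and DESeq2 called 0 against CLP and 1 against ILCP, Anln. Their log2 differences ran from -0.74 to 1.30 against CLP and from -0.68 to 2.38 against ILCP. The centralspindlin motor gene Kif23 had 70.1 and 34.7 CPM in ILC1/3P, against 74.8, 107 and 56.3 CPM in ILCP and 60.6, 71.0 and 51.7 CPM in CLP, and the groups overlapped. Its log2 difference from CLP was -0.22 (95% interval -1.09 to 0.65). Ect2, which activates RhoA for furrowing, had 24.7 and 19.6 CPM in ILC1/3P, against 17.6, 57.2 and 31.8 CPM in ILCP and 53.8, 20.4 and 36.3 CPM in CLP. Its log2 difference from CLP was -0.74 (95% interval -1.99 to 0.52). Anln, the scaffold of the contractile ring, had 44.1 and 15.6 CPM in ILC1/3P, against 5.83, 1.38 and 10.0 CPM in ILCP and 17.1, 4.05 and 15.3 CPM in CLP. The ILC1/3P libraries lay above ILCP, with a difference of 2.38 ± 0.89 (log2, adjusted p = 0.0959), and the lower of them lay within the CLP range. The call of Anln against ILCP was gained in 4 of 18 alternatives: DESeq2 (adjusted p = 0.0342), the replicate block (0.0292), the block with the length and GC offset (0.0192) and no filter on low counts (0.0309).

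Mki67 and Top2a, genes of proteins on mitotic chromosomes that are widely used as markers of dividing cells, were both higher in ILC1/3P than in the other populations. Of all genes, 11.8% were higher against CLP and 8.06% against ILCP. Mki67 (Ki-67, ENSMUSG00000031004, chromosome 7, 135689788 to 135716379) had 248 and 214 CPM in ILC1/3P, against 44.9, 26.8 and 35.6 CPM in ILCP and 27.4, 32.4 and 27.4 CPM in CLP. Mki67 was higher by 2.99 ± 0.31 (log2) than in CLP (adjusted p = 7.52e-05) and by 2.69 ± 0.31 than in ILCP (adjusted p = 0.000424). Top2a (topoisomerase II alpha, which untangles sister chromatids, ENSMUSG00000020914, chromosome 11, 98992943 to 99024189) had 284 and 252 CPM in ILC1/3P, against 22.9, 28.3 and 31.7 CPM in ILCP and 37.6, 18.9 and 15.0 CPM in CLP. Top2a was higher by 3.48 ± 0.40 (log2) than in CLP (adjusted p = 0.000121) and by 3.28 ± 0.39 than in ILCP (adjusted p = 0.000502).

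**Figure D3:**
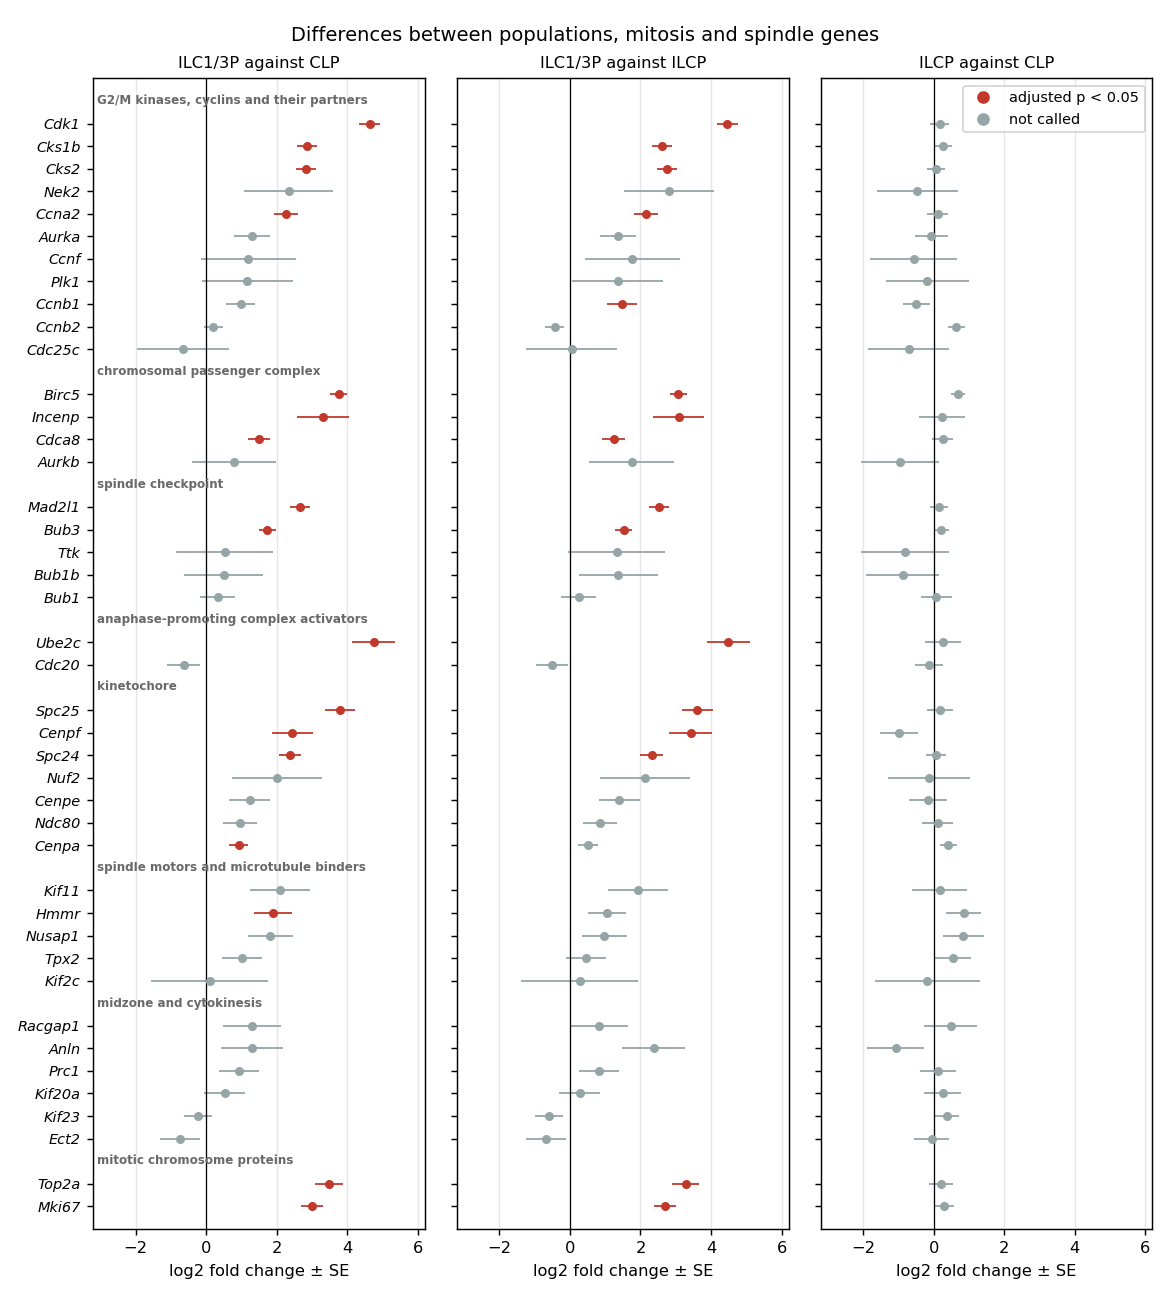
Points give the log2 fold change of each gene and bars 1 standard error from edgeR, in 3 panels for ILC1/3P against CLP, ILC1/3P against ILCP and ILCP against CLP, with called genes in red. The first 2 panels hold 17 and 16 called genes, all above 0, and the third holds none.

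No mitosis gene passed the test between ILCP and CLP. None of the 42 was called (edgeR), beside 6.79% of all genes, 3.91% higher and 2.87% lower. At an unadjusted p under 0.05 there were 2, Birc5 and Ccnb2, and DESeq2 called 1, Birc5. The log2 fold changes of ILCP against CLP ran from -1.08 to 0.85, with a median of 0.12 where that of all genes was 0.01. Birc5, at the values given above, was higher in all 3 ILCP libraries than in any CLP library, by 0.69 ± 0.21 (log2, adjusted p = 0.0772 in edgeR and 0.0153 in DESeq2). Ccnb2 was likewise higher in every ILCP library, by 0.64 ± 0.23 (adjusted p = 0.141), and Ccnb1 was lower in every ILCP library, with a log2 fold change of -0.50 ± 0.38 (adjusted p = 0.574). Those 3 were the only members whose ILCP and CLP libraries did not overlap, against 14.1% of all genes above and 14% below. For the other 7 genes among the 10 with the smallest p in this comparison (Cenpf, Hmmr, Cenpa, Nusap1, Anln, Mki67 and Kif23) the libraries overlapped, and adjusted p ran from 0.365 to 0.673. The 95% interval of the log2 difference was -0.41 to 0.74 for Cdk1, -0.31 to 0.91 for Mki67 and -0.56 to 0.97 for Top2a. Differences between ILCP and CLP within these intervals were not excluded.

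Levels of different genes were compared on the authors' FPKM, which is per length of the gene model. In ILC1/3P the highest were Cks1b with 1438 ± 156 FPKM, Bub3 with 523 ± 156 FPKM and Cks2 with 478 ± 86.5 FPKM (mean ± SD, n = 2). In ILCP the highest were Ccnb2 with 513 ± 39.3 FPKM, Cks1b with 362 ± 38.0 FPKM and Bub3 with 280 ± 13.4 FPKM (n = 3). In CLP they were Ccnb2 with 338 ± 33.7 FPKM, Cks1b with 309 ± 69.9 FPKM and Bub3 with 248 ± 20.2 FPKM (n = 3), and the spreads of Ccnb2 and Cks1b overlapped there. Ccnb2 thus led the list in ILCP and CLP but stood in position 5 in ILC1/3P, at 248 ± 94.0 FPKM. The lowest were Prc1 (1.75 FPKM), Ect2 (1.55) and Kif2c (1.26) in ILC1/3P, Ttk (1.13 FPKM), Nek2 (0.839) and Cenpf (0.431) in ILCP, and Prc1 (1.47 FPKM), Nek2 (1.24) and Cenpf (0.890) in CLP, all as means. The median of the 42 genes was 11.0 FPKM in ILC1/3P, 6.61 FPKM in ILCP and 7.07 FPKM in CLP. FPKM carries no TMM factor, and the authors' lengths can exceed any single transcript, as for Cenpa, with 9698 bases against 3806 for its longest GENCODE M21 transcript.

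Libraries of 1 group also differed among themselves. In ILC1/3P, 30 of the 42 genes were higher in replicate 1 and 12 in replicate 2, with a median ratio of 1.35 where that of all genes was 1.00. More than a 2-fold excess in replicate 1 was seen for 10 genes, among them Tpx2 (3.49-fold), Plk1 (3.39-fold), Ccnb1 (3.04-fold) and Aurkb (2.98-fold), and Ccnf had a ratio of 0.303. Of these 11 genes, Ccnb1, Cdca8 and Hmmr were called in a comparison, and those calls did not survive leaving out replicate 1. The 10 genes with the smallest p had ratios below 2 and above 0.5. Agreement between these same libraries lowers p, so those ratios are no separate evidence for the calls. In ILCP, replicate 2 had 0 counts for 7 genes (Ccnf, Cdc25c, Plk1, Aurkb, Bub1b, Nuf2 and Kif2c) where replicates 1 and 3 had counts for all 42. A count of 0 in that library allows up to 0.415 CPM by counting error alone. In CLP, replicate 2 had 0 counts for Ttk and Kif2c.

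**Figure D4:**
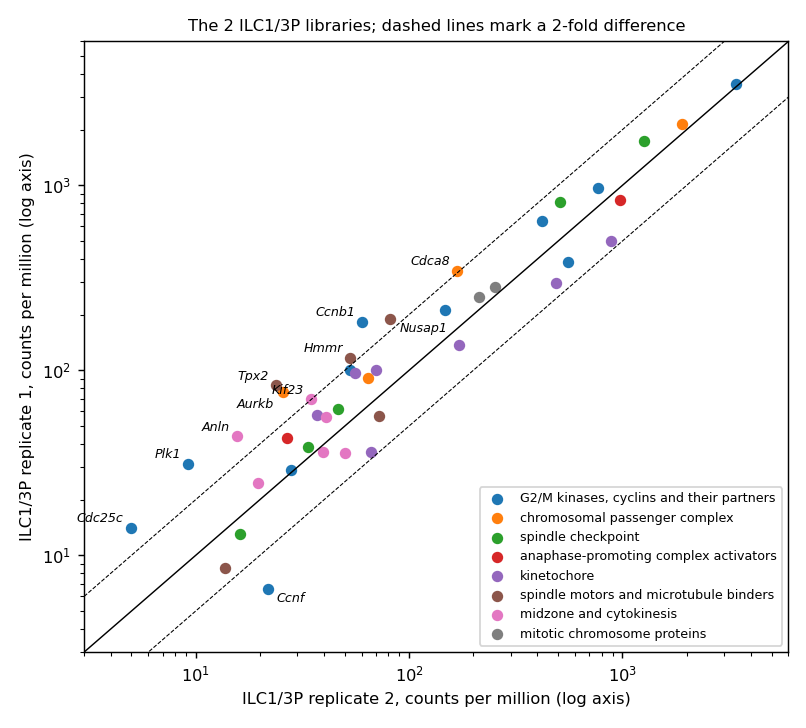
Each point is 1 gene, with its TMM-adjusted CPM in ILC1/3P replicate 2 on the horizontal and in replicate 1 on the vertical log axis, coloured by role. Genes outside the dashed 2-fold lines are named: 10 lie above and Ccnf lies below.

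The wider machinery of mitosis was described by 133 further genes in 5 lists, all of them tested. In ILC1/3P 36 were higher (27.1%) and 7 lower (5.26%) than in CLP, beside 11.8% and 11.7% of all genes. Against ILCP 31 were higher (23.3%) and 5 lower (3.76%), beside 8.06% and 8.25% of all genes. Under library-size scaling alone, 21 were higher and 13 lower than in CLP, where 7.04% and 20.9% of all genes were, and 13 higher and 11 lower than in ILCP, where 3.53% and 15.9% were. Between ILCP and CLP 1 was called (0.752%), Rbl2. Of the 5 lists, the kinetochore and centromere list held the largest share of higher genes: 15 of 32 against CLP and 14 of 32 against ILCP, with none lower. Cenpk, of the inner kinetochore, had 507 and 499 CPM in ILC1/3P, against 67.4, 83.1 and 63.2 CPM in ILCP and 48.6, 62.4 and 73.8 CPM in CLP. Cenpk was higher by 3.03 ± 0.27 (log2) than in CLP (adjusted p = 2.39e-05) and by 2.82 ± 0.26 than in ILCP (adjusted p = 0.000164). Oip5, Ska1 and Cenph were higher than in CLP by 3.24, 3.02 and 2.31 (log2), and Cenph, Oip5 and Pmf1 were higher than in ILCP by 2.67, 2.62 and 2.00. Oip5 exons overlap those of Nusap1 on the other strand.

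The anaphase-promoting complex and separase list of 19 genes had 6 higher (31.6%) and 3 lower (15.8%) against CLP, beside 11.8% and 11.7% of all genes. Against ILCP it had 5 higher (26.3%) and 3 lower (15.8%), beside 8.06% and 8.25%. Cdc16, a core subunit of the complex, had 31.9 and 15.8 CPM in ILC1/3P, against 166, 102 and 165 CPM in ILCP and 236, 203 and 173 CPM in CLP. Its log2 fold change against CLP was -3.09 ± 0.39 (adjusted p = 0.000226). Anapc5, another core subunit, had -2.96 ± 0.44 (log2, adjusted p = 0.000655), and the small subunits Anapc10 and Anapc15 were higher by 1.73 ± 0.30 and 1.99 ± 0.37 (adjusted p = 0.00176 and 0.00243). Against ILCP, Cdc16, Anapc5 and Anapc4 were lower, and Fbxo5, an inhibitor of the complex, was higher by 2.97 ± 0.57 (adjusted p = 0.00512). With library size only, 3 were higher and 5 lower against CLP, where 20.9% of all genes were lower, and 1 higher and 6 lower against ILCP, where 15.9% were.

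In the cohesin and condensin list 3 of 22 were higher (13.6%) and 1 lower (4.55%) than in CLP, and the share of higher genes was close to the 11.8% of all genes. The condensin ATPase genes Smc4 and Smc2 were higher by 1.97 ± 0.28 and 1.90 ± 0.34 (log2, adjusted p = 0.000462 and 0.00207), as was the condensin II gene Ncapg2, and the cohesin gene Stag2 was lower, with a log2 fold change of -1.16 ± 0.32 (adjusted p = 0.0221). Against ILCP, 4 were higher (18.2%, beside 8.06% of all genes) and none lower: Smc2, Smc4, Ncapg2 and Sgol1 (shugoshin). Of 33 spindle, centrosome and cytokinesis genes, 8 were higher than in CLP (24.2%) and none lower, beside 11.8% and 11.7% of all genes. Against ILCP 4 were higher (12.1%) and none lower, beside 8.06% and 8.25%. The called genes with the smallest p against CLP were Spag5, Stil, Kif15 and Cit, and against ILCP they were Cit, Kif15, Arhgap11a and Sass6. With library size only, 2 of this list were higher and 1 lower than in CLP, beside 7.04% and 20.9% of all genes. None was then called against ILCP, beside 3.53% and 15.9%. Of 27 genes of G2/M entry and its transcription factors, 4 were higher (14.8%) and 3 lower (11.1%) than in CLP, shares close to the 11.8% and 11.7% of all genes. Against ILCP 4 were higher (14.8%) and 2 lower (7.41%), beside 8.06% and 8.25% of all genes. Arpp19, which with Ensa inhibits the phosphatase PP2A when mitosis begins, was higher than in CLP by 1.64 ± 0.24 (log2, edgeR adjusted p = 0.000582). In the comparison with ILCP, Ensa was lower, with a log2 fold change of -1.09 ± 0.26 (edgeR adjusted p = 0.0154). The 2 values come from different comparisons, and the 2 genes were not tested against each other. Cdkn3, a phosphatase of cyclin-dependent kinases, was higher than in CLP by 3.07 ± 0.43 (adjusted p = 0.000397), and Lin52, a subunit of the complex that binds CHR elements, was lower, with a log2 fold change of -2.88 ± 0.46 (adjusted p = 0.00104). Rbl2, a pocket protein that joins this complex in resting cells, had 131 and 116 CPM in ILC1/3P, 84.0, 94.2 and 118 CPM in ILCP and 25.1, 19.1 and 17.2 CPM in CLP. It was higher than in CLP by 2.59 ± 0.31 (log2, adjusted p = 0.000166) in ILC1/3P and by 2.27 ± 0.29 (adjusted p = 0.000475) in ILCP.

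**Figure D5:**
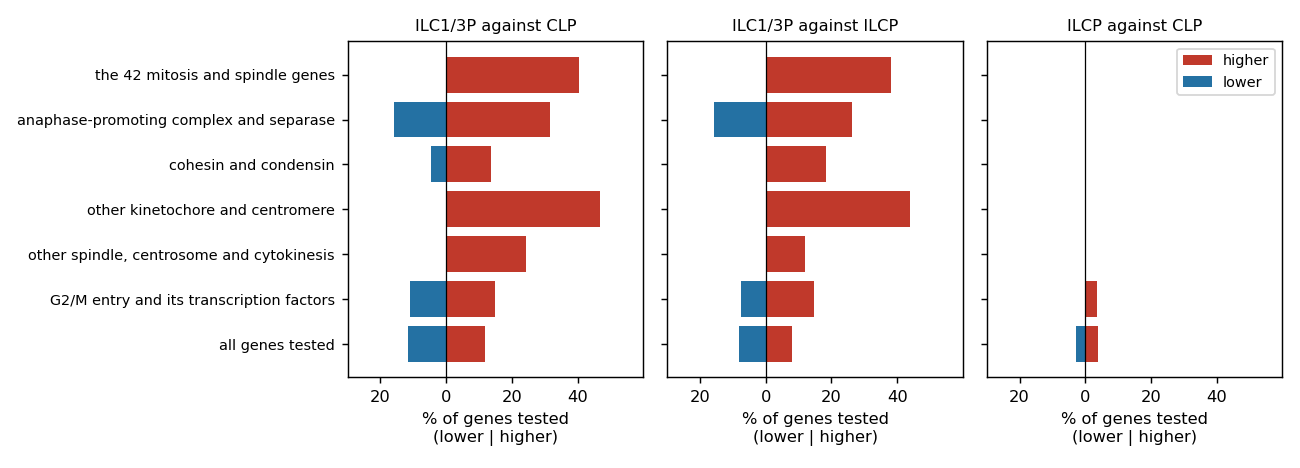
Bars give the percent of genes called higher (right, red) and lower (left, blue) in each list and among all genes tested, in 3 panels by comparison. In ILC1/3P against CLP 40.5% of the 42 mitosis genes were higher, beside 46.9% of the other kinetochore and centromere genes and 11.8% of all genes.

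Gene length varied with the outcome across the whole table. Among all genes tested with a longest transcript under 1000 bases, 32.5% were called higher in ILC1/3P against CLP and 3.65% lower, against 6.19% and 9.87% of those over 4000 bases. Of the 42 mitosis genes, 2 fall in the shortest class, Cks1b and Cks2, and both were higher. Of the 13 over 4000 bases, 6 were higher and none lower. With a smooth of length and GC content per library as an offset, 21 of the 42 were higher than in CLP and 17 higher than in ILCP, with none lower in either. Under that offset 14.5% of all genes were higher and 8.59% lower than in CLP, and 9.69% higher and 5.42% lower than in ILCP.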

How the data were processed

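Per the labels' protocols, cDNA came from a SMARTer Ultra Low kit used directly on lysed sorted cells, followed by PCR and NovaSeq6000 sequencing. No molecular identifiers are described, so floors cover counting error only. The deposited table holds raw whole-number counts per gene and, in columns of its own, FPKM computed by the authors, which equalled the count over a fixed gene length and the column total to within 0.054% between libraries. The submitters' processing notes name mm10 as the build. Aligner, counter, annotation and strand setting: not given in the sources used here. Sample titles gave each library's group and replicate number, and 0 columns were left unmapped.

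The test was the quasi-likelihood F test of edgeR 4.0.16 (R 4.3.3) after filterByExpr and TMM, two-sided, with a robust fit to all 8 libraries and Benjamini-Hochberg adjustment over 13436 genes. Standard errors are the log2 fold change over the root of F. Dispersion corresponded to a biological coefficient of variation of 0.679, with residual and prior degrees of freedom of 5 and 6.49. The fit was also run on simulated data with known changes, but at a smaller spread than that of these data. That run does not show how the test performs at the spread seen here. Alternatives included DESeq2 1.42.0 and limma 3.58.1 on log2(FPKM + 1), with genes over 1 FPKM in at least 2 libraries. Transcript lengths, exon overlaps and shared 50-base words came from GENCODE M21, which held 31 of the 42 genes at an identical locus.

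The 42 genes, the further lists and the tests were chosen with earlier results of these data known. Per comparison the 10 members with the smallest p, every called member, the members at the extremes of FPKM and up to 4 called genes of each further list are named. Other members were picked for naming after their values were seen.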

Additional observations from a re-analysis of the deposited data

How the results depend on the processing

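In all 18 alternatives of each comparison at least 13 of the 42 genes were higher in ILC1/3P, against CLP and against ILCP, and none was lower against CLP. Over all genes in those alternatives, 7.04% to 14.9% were higher against CLP and 3.53% to 10% against ILCP. Leaving out 1 CLP or ILCP library gave 15 to 19 higher against CLP, beside 9.67% to 12.4% of all genes. Against ILCP it gave 13 to 16, beside 5.26% to 8.13%. Where an ILC1/3P library was left out, the lone one is assumed to vary like the other groups. Against ILCP, 1 gene was lower with library size only (Ccnb2) and 2 with limma on FPKM (Ccnb2 and Kif23). Of all genes, 15.9% and 21% were lower in those 2 alternatives. DESeq2 gave 20 higher against CLP and 18 against ILCP, beside 10.9% and 7.99% of all genes. No filter on low counts gave 20 and 21, beside 9.27% and 6.48%. Between ILCP and CLP, DESeq2 called 1 higher, beside 4.95% of all genes, and every other alternative 0, beside 2.64% to 6.05%. No single-gene value changed sign past the threshold. The calls of Birc5, Bub3, Ccna2, Cdk1, Cks1b, Cks2, Mad2l1, Mki67, Spc24, Spc25, Top2a and Ube2c held under all 18 alternatives in both comparisons.

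Over all genes, library size only gave 946 higher and 2807 lower in ILC1/3P against CLP, and 474 higher and 2141 lower against ILCP, where the main counts were 1592, 1571, 1083 and 1109. limma on FPKM gave 3241 lower against CLP, 678 higher and 2508 lower against ILCP, and 749 lower in ILCP against CLP. DESeq2 gave 929 higher and 806 lower in ILCP against CLP (526 and 386 in edgeR) and 1750 lower in ILC1/3P against ILCP. Without a filter on low counts 602 were lower in ILCP against CLP. With the length and GC offset 726 were lower in ILC1/3P against ILCP, and with the replicate block added 487, with 851 lower against CLP. Leaving out 1 library gave 623 to 1066 higher and 689 to 1233 lower in ILC1/3P against ILCP, and 347 to 613 higher and 215 to 502 lower in ILCP against CLP. An offset with the authors' lengths, added after seeing the data, gave 21, 18 and 0 mitosis genes higher. Of all genes, 14.9%, 10% and 4.05% were then higher. The causes were not tested.

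Deviations from the group means correlated by -0.0332 to 0.0867 between same-numbered libraries and by -0.093 to 0.0332 between libraries with different numbers. With 2 to 3 libraries a group, these correlations cannot decide whether the replicate numbers in the titles pair the libraries. With the replicate block 17, 16 and 0 mitosis genes were higher in ILC1/3P against CLP, ILC1/3P against ILCP and ILCP against CLP. Of all genes, 10.4%, 7.03% and 3.31% were then higher. With 2 to 3 libraries a group and a wide spread, members with few counts, such as Plk1, Ttk, Ccnf and Kif2c, had standard errors over 1 (log2). Moderate differences in them were therefore not excluded.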
